A study of Rattus norvegicus with 9 samples.

Results

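The rat genome encodes a large group of secreted signalling proteins, the interleukins, and the receptors that bind them, and the array used here measured 65 genes whose symbol starts with Il followed by a digit. They were taken from 14506 genes represented by a probe set with exactly 1 symbol, and each of the 65 had 1 probe set. The choice rests on the name alone, so it also holds antagonists, binding proteins and Il1rapl1, an accessory protein-like receptor that is best known from synapses. By what their products do, 31 were grouped as ligands, 30 as receptor subunits and 4 as binding proteins or antagonists, a grouping made after the values were seen. The RNA had been isolated from prefrontal cortex (PFC), hippocampus (HC) and blood of 3 male Wistar rats, numbered 2, 5 and 7, each sample on its own Rat Gene 1.0 ST array (9 in all). The rats were 6 weeks old on arrival, had 1 week to settle and received no treatment, and no group carries an allele or agent that another lacks. Blood was drawn at decapitation into tubes that preserve RNA, and the brain regions were punched out of frozen sections, so all cell types of a region were pooled. Wistar rats are an outbred stock. The sources give different numbers of animals, and n = 3 here is the number of arrays per tissue.

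Interleukins carry messages mainly between leukocytes. A cell can answer only if it makes the matching receptor chains, and several chains are shared: Il2rg, the common gamma chain, serves the receptors for IL-2, IL-4, IL-7, IL-9, IL-15 and IL-21, and Il6st, called gp130, serves those for IL-6, IL-11 and IL-27. Most of these receptors signal through JAK kinases and STAT factors. Those for IL-1, IL-18 and IL-33 use MyD88 and TRAF6 instead, and those for IL-17 use TRAF6 without MyD88. In brain, IL-34 is a neuronal ligand of the microglial receptor Csf1r, and IL-33 is a nuclear alarmin of astrocytes and oligodendrocytes.

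The IL-1 system held genes of both directions. Il1b and its antagonist Il1rn were lower in brain than in blood, and the accessory protein Il1rap and its relative Il1rapl1 were higher. The 250 bases before the RefSeq gene start (assembly GRCr8, 5′ to 3′ on the strand of the gene) are shown for these 4, with the letters TATAAA on either strand and the dinucleotide CG in capitals. They are Il1b at chr3:137036582-137036831 on the minus strand, Il1rn at chr3:27520072-27520321 on the plus strand, Il1rap at chr11:87704343-87704592 on the minus strand and Il1rapl1 at chrX:56588341-56588590 on the minus strand.
Il1b: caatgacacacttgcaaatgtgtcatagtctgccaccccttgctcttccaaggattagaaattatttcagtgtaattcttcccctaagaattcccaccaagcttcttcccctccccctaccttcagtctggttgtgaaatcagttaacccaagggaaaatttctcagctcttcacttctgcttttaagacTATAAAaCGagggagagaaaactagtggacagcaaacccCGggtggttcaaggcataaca
Il1rn: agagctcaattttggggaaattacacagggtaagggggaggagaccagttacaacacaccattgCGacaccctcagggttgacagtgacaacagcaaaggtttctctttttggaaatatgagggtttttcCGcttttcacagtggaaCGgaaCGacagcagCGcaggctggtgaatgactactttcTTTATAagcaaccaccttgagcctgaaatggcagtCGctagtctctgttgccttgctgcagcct
Il1rap: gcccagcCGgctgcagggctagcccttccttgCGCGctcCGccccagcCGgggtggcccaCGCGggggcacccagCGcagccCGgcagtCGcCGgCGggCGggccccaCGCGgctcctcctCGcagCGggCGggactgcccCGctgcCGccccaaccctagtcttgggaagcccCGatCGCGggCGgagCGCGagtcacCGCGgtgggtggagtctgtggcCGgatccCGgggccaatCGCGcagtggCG
Il1rapl1: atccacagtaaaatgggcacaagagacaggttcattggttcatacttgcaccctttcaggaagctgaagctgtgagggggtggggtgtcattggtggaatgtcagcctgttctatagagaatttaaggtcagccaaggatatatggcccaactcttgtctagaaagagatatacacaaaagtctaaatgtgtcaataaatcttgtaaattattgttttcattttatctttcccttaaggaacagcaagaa
The sequences of Il1b and Il1rn hold TATAAA once each, 60 and 64 bases before the gene start, and those of Il1rap and Il1rapl1 do not hold it. CG occurred 33 times before Il1rap, 6 times before Il1rn, 2 times before Il1b and 0 times before Il1rapl1, beside a median of 6 over all 27457 rat promoters. Of the 65 genes, 50 had an entry. A total of 7 motifs were searched on both strands, and TATAAA and CG were chosen for display after these counts had been seen. TATAAA was in 13.09% of all promoters, GAGGAAG (ETS) in 10.12%, the NF-kB letters (GGG, any 5 bases, CC) in 43.52%, TTCNNNGAA (GAS) in 7.52%, TTGCNNAAT (C/EBP) in 2.29%, TGACGTCA (CRE) in 1.7% and CACGTG (E-box) in 5.79%. Among the 50 interleukin genes the shares were 18%, 4%, 46%, 10%, 4%, 4% and 4%, in the same order. NF-kB and ETS matches can overlap others. The matches are descriptions of letters, and no binding was measured.

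The tissues carried the markers of their labels. All 8 T cell, 6 neutrophil and 5 monocyte markers were present in blood, and all 6 neuronal and 6 astrocyte markers were present in HC and PFC. Neuronal markers averaged 11.11 to 11.18 on the HC arrays, 11.26 to 11.35 on the PFC arrays and 5.25 to 5.51 on the blood arrays (log2 level, as are all levels given here). Some markers of brain cells passed the cut-off of 6.2 in blood. These were 2 of 6 neuronal markers (Tubb3 at 6.51 and Rbfox3 at 6.30), 1 of 6 astrocyte and 2 of 5 oligodendrocyte markers. So did 5 of 7 microglia and 2 of 5 brain endothelial markers. Some markers of blood cells had a signal in brain. Hbb, a haemoglobin chain, had a mean of 8.69 in HC and 9.66 in PFC beside 13.81 in blood, and Lyz2, a lysozyme of myeloid cells, 6.62 and 7.63 beside 12.12. Ahsp, an erythroid chaperone, was below background in HC and PFC, at 2.86 and 3.36. The erythroid markers Slc4a1 (5.075 and 5.31), Epb42 (5.17 and 5.42) and Alas2 (5.43 and 6.09) were above background there. No neutrophil, B cell or platelet marker was present in brain, though some, such as Csf3r (5.88 and 5.67) and Pf4 (5.65 and 5.76), were above background. Gzmb (6.27 and 6.28) and Ly86 (6.35 and 6.29) were present in both regions and Cd3e (7.14) in HC. The part of blood RNA in the brain levels of interleukin genes was not tested. In these bulk samples, fewer cells of a type and less RNA per cell cannot be told apart.

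Presence in a tissue means here that the average level over its 3 arrays exceeded 6.2. Blood had 22 interleukin genes present, HC 13 and PFC 14. These are 33.8%, 20% and 21.5% of the 65, whereas among all genes the shares were 55.3% for blood, 58% for HC and 58.2% for PFC. Present in blood alone were 12 genes, in both brain regions but not blood 5 (Il1rapl1, Il34, Il33, Il12a and Il11ra1), and in all 3 tissues 7. Il16 was present in blood and HC, Il17ra and Il10rb in blood and PFC, and 38 genes were present nowhere. Receptors made up most of what was present: 17 of 30 receptor genes and 8 of 31 ligand genes were present in at least 1 tissue.

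The 27 genes present in any tissue were compared in limma, among 16884 probe sets. In brain, taken as the mean of HC and PFC, 7 were higher and 19 lower than in blood, and Il16 did not pass. Over all probe sets tested, 48.8% were called higher and 37.4% lower, and the median log2 difference was −1.76 for the interleukin genes and 0.22 for all. A gene that entered only because it was high in blood had to differ, so these counts describe the genes and are no test of them. The arrays of brain and blood did not overlap for 26 of the 27, as for 79.6% of all probe sets tested. HC against blood gave 8 higher and 19 lower (47.6% and 36.3% over all probe sets), and PFC against blood 7 higher and 20 lower (47.3% and 36.7%). The 3 comparisons share their arrays. The plot of the 27 genes by array shows the 2 directions.

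**Figure D1:**
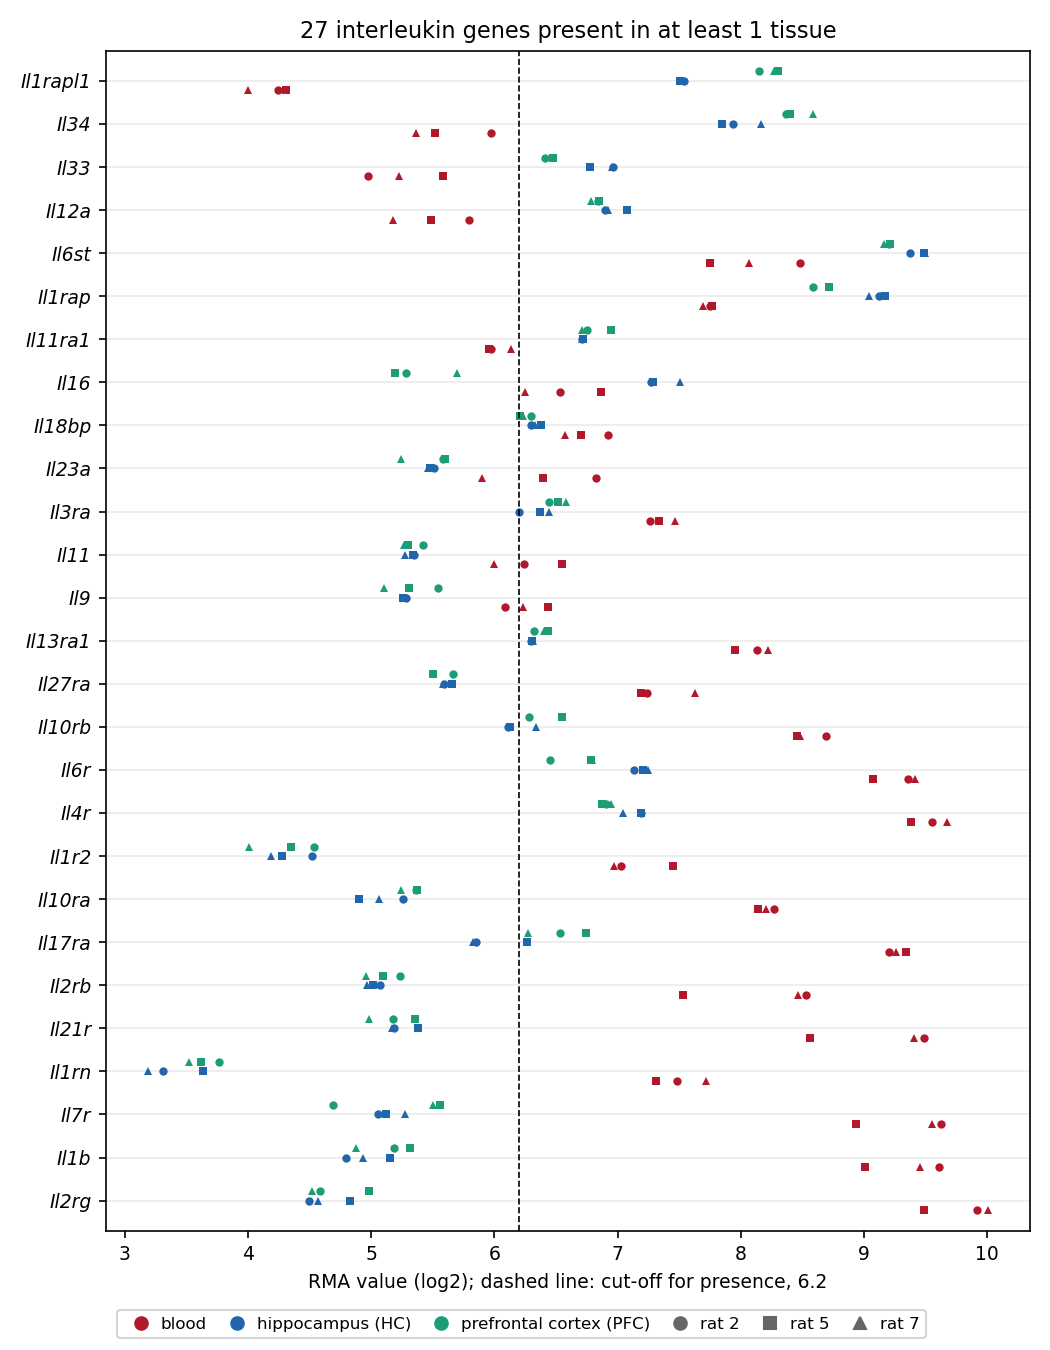
Log2 level (RMA value, horizontal axis) of the 27 interleukin genes present in at least 1 tissue, with 1 point per array, colours for the 3 tissues and symbols for the 3 rats; the dashed line is the cut-off of 6.2. Genes are ordered by the difference between brain and blood, from Il1rapl1 (3.70 higher in brain) at the top to Il2rg (fell by 5.14) at the bottom, and Il16 is the gene for which the HC and PFC points lie on opposite sides of the blood points.

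The receptors of the common gamma chain family were high in blood and close to background in brain. Il2rg was at 9.92, 9.49 and 10.004 in blood of rats 2, 5 and 7, at 4.50, 4.83 and 4.57 in HC and at 4.59, 4.98 and 4.52 in PFC. Every blood array was far above every brain array, and the brain means were below the 95th percentile of 1298 olfactory, vomeronasal and taste receptor probe sets (5.53 in blood, 4.88 in HC, 4.85 in PFC), taken here as background. Of the brain arrays, all but PFC of rat 5 were below it. The fitted log2 difference of Il2rg was −5.14 (SE 0.147, adjusted p = 5.341e-10). With each array below background raised to it, the difference was −4.918, and this is how the least differences below were obtained. They are differences of means and not bounds of an interval, so a single rat can differ by less.

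Il7r, the alpha chain of the IL-7 receptor on resting T cells, was at 9.62, 8.94 and 9.55 in blood, at 5.05, 5.12 and 5.28 in HC and at 4.69, 5.56 and 5.50 in PFC (log2 difference −4.17, SE 0.211, adjusted p = 3.019e-08). Il21r was at 9.48, 8.56 and 9.40 in blood and between 4.98 and 5.38 on the 6 brain arrays (−3.94, SE 0.191). Il2rb, the beta chain shared by the IL-2 and IL-15 receptors, was at 8.53, 7.53 and 8.47 in blood and between 4.96 and 5.23 in brain (−3.12, SE 0.197). In these genes rat 5 had the lowest blood level, and no brain array reached any blood array. Il4r, which binds IL-4 and is also expressed outside the immune system, was the exception in that it was present in brain. It was at 9.55, 9.38 and 9.68 in blood and above the cut-off in brain too, at 7.19, 7.19 and 7.05 in HC and 6.91, 6.87 and 6.94 in PFC (−2.51, SE 0.0833, adjusted p = 1.462e-09). The remaining receptors of the family, Il2ra and Il9r, did not reach the cut-off. Beside these genes, the mean of 8 T cell markers was 8.86 to 9.55 in blood, 4.87 to 4.97 in HC and 4.68 to 4.81 in PFC, and its part in their levels was not tested.

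Ligands of the same receptors were scarce at this baseline. Of the 6 common gamma chain cytokines on the array, Il9 alone passed the cut-off, in blood and by little. It was at 6.09, 6.43 and 6.23 in blood and between 5.11 and 5.54 in brain (log2 difference −0.96, SE 0.109, adjusted p = 1.508e-05). The blood arrays were all higher, but the 1298 olfactory, vomeronasal and taste receptor probe sets also had lower brain than blood values, with a median difference of −0.51 and 98% of them below blood. Il11, a ligand of the gp130 family, and Il23a, the p19 subunit of IL-23, had differences of like size, −0.94 (SE 0.113) and −0.89 (SE 0.175). Both lay between 5.90 and 6.82 in blood and between 5.24 and 5.60 in brain. The 3 passed the test, and how far their differences exceed the general shift of dim probe sets was not tested.

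Within the IL-1 system, the ligand Il1b, the antagonist Il1rn and the decoy receptor Il1r2 were blood genes. Il1b was at 9.61, 9.01 and 9.45 in blood, at 4.80, 5.16 and 4.93 in HC and at 5.18, 5.31 and 4.88 in PFC (log2 difference −4.31, SE 0.151, adjusted p = 2.067e-09). The brain means of Il1b were above background, by little. Il1rn, which occupies the IL-1 receptor without signalling, was at 7.48, 7.31 and 7.72 in blood and between 3.19 and 3.77 in brain. All 6 of these brain values lay below background, so the least difference of Il1rn between brain and blood was −2.64, beside a fitted one of −3.997 (SE 0.124, adjusted p = 9.371e-10). Il1r2 was at 7.03, 7.45 and 6.97 in blood and between 4.01 and 4.54 in brain, also below background, so that the least difference was −2.288 (fitted −2.84, SE 0.147). The mean of 5 monocyte markers was 10.01 to 10.22 in blood and 5.66 to 6.01 in brain, and that of 6 neutrophil markers 8.21 to 8.69 and 4.33 to 4.52, and their part in these levels was not tested.

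The accessory chains of the same family were higher in brain than in blood. Il1rap, which joins the receptors for IL-1, IL-33 and IL-36, was at 7.75, 7.76 and 7.69 in blood, at 9.12, 9.17 and 9.04 in HC and at 8.59, 8.71 and 8.71 in PFC. It was present in every tissue, and brain exceeded blood by 1.16 (SE 0.0700, adjusted p = 1.144e-07). Il1rapl1 was at 4.24, 4.31 and 3.9975 in blood, below background, at 7.54, 7.51 and 7.51 in HC and at 8.15, 8.30 and 8.27 in PFC. No blood array came near a brain array, and Il1rapl1 was at least 2.345 higher in brain, with a fitted difference of 3.70 (SE 0.0857, adjusted p = 1.479e-10). Il33 was at 4.97, 5.58 and 5.23 in blood, at 6.96, 6.77 and 6.96 in HC and at 6.41, 6.48 and 6.48 in PFC. Its blood mean was below background, though rat 5 was above it, and Il33 was at least 1.125 higher in brain (fitted 1.42, SE 0.122, adjusted p = 1.766e-06). Il18bp, which binds and neutralises IL-18, was near the cut-off in all tissues, 6.57 to 6.92 in blood and 6.204 to 6.38 in brain, and was lower in brain by the smallest difference that passed (−0.44, SE 0.0864, adjusted p = 0.0007527), a size below the −0.51 of the olfactory, vomeronasal and taste receptor probe sets.

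Receptors that use gp130 were split. Il6st itself was at 8.48, 7.75 and 8.07 in blood, at 9.38, 9.49 and 9.50 in HC and at 9.20, 9.21 and 9.16 in PFC. Every brain array was above every blood array, by a mean of 1.22 (SE 0.136, adjusted p = 1.218e-05). Il11ra1, the IL-11 receptor alpha chain, was at 5.97, 5.96 and 6.13 in blood and between 6.71 and 6.95 in brain (0.74 higher, SE 0.0805). Il6r, the chain that binds IL-6, went the other way, with 9.35, 9.07 and 9.41 in blood, 7.13, 7.205 and 7.25 in HC and 6.45, 6.79 and 6.79 in PFC (−2.34, SE 0.108, adjusted p = 1.483e-08). Il27ra was at 7.23, 7.19 and 7.63 in blood and between 5.50 and 5.66 in brain (−1.77, SE 0.105). The shared chain was thus higher in brain and Il6r and Il27ra were lower, while Il6 was present in no tissue, with arrays between 2.92 and 4.25.

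The 5 receptors of the IL-10, IL-17, IL-13 and IL-3 systems that were tested were lower in brain, and Il20ra, Il17rb, Il17re, Il13ra2 and Il5ra were present nowhere and not tested. Il10ra, the chain that binds IL-10, was at 8.27, 8.14 and 8.20 in blood and between 4.90 and 5.37 in brain (log2 difference −3.01, SE 0.0899, adjusted p = 7.284e-10), whereas its partner Il10rb, which other receptors of the family share, was at 8.69, 8.46 and 8.48 in blood and between 6.11 and 6.55 in brain (−2.21, SE 0.0987). Il17ra, the chain common to receptors for IL-17 cytokines, was at 9.20, 9.34 and 9.26 in blood, at 5.85, 6.26 and 5.82 in HC and at 6.53, 6.74 and 6.28 in PFC (−3.02, SE 0.128, adjusted p = 8.005e-09). None of these overlapped between brain and blood. Il13ra1 was at 8.13, 7.95 and 8.22 in blood and between 6.30 and 6.44 in brain (−1.76, SE 0.0780), and Il3ra, the IL-3 receptor alpha chain, at 7.26, 7.34 and 7.46 in blood and between 6.199 and 6.58 in brain (−0.93, SE 0.0835). Both kept means just above the cut-off in HC and PFC.

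Il34 and Il12a were the ligands besides Il33 that were higher in brain. Il34 was at 5.98, 5.51 and 5.37 in blood, at 7.93, 7.85 and 8.16 in HC and at 8.37, 8.40 and 8.59 in PFC, a difference of 2.60 (SE 0.137, adjusted p = 4.04e-08), or 2.53 with the blood arrays below background raised to it. Its receptor Csf1r was lower in brain than in blood, by a difference of −0.42 (SE 0.0749, adjusted p = 0.0003954). Ptprz1, a receptor phosphatase of astrocyte lineage cells that also binds IL-34, was below background in blood and at least 4.07 higher in brain (fitted 5.52, SE 0.0861). Il12a, the p35 subunit of IL-12 and IL-35, was at 5.79, 5.49 and 5.18 in blood, at 6.90, 7.07 and 6.92 in HC and at 6.84, 6.85 and 6.78 in PFC, and with blood of rats 5 and 7 below background it was at least 1.27 higher in brain (fitted 1.41, SE 0.122, adjusted p = 1.779e-06). Il12b, which pairs with it in IL-12, was present in no tissue, and Ebi3, which pairs with it in IL-35, was lower in brain by a difference of −0.64 (SE 0.0880).

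Most of these genes, like most of all probe sets, did not pass the test between HC and PFC. Of the 27, 3 were higher in HC (11.11%), 1 was lower (3.704%) and 23 did not pass. Over all probe sets, 4.51% were called higher and 4.66% lower. At an unadjusted p under 0.05 there were 10, where 18.9% of all probe sets passed. The members' median log2 difference was −0.05, and that of all probe sets was −0.003187. A miss does not show equality: in simulated data for this comparison 18% of differences of 0.5 and 84% of differences of 1 were recovered. The simulation planted 50 differences of each size among 16884 probe sets, left the others equal and had no pairing by rat. Far more probe sets were called in the real data, so these shares need not hold there. The range of the 95% intervals was wide for Il7r, from −0.65 to 0.45, and narrow for Il13ra1, from −0.28 to 0.12.

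Il16, a cytokine precursor known to attract CD4-bearing cells and to have a neuronal form, differed most. It was at 7.27, 7.29 and 7.51 in HC, at 5.29, 5.19 and 5.70 in PFC and at 6.53, 6.87 and 6.25 in blood. All HC arrays lay above and all PFC arrays below all blood arrays. The log2 difference between HC and PFC was 1.96 (SE 0.176, adjusted p = 9.131e-05). Against blood, Il16 was higher in HC by 0.81 (SE 0.176, adjusted p = 0.001694) and lower in PFC (−1.16, SE 0.176, adjusted p = 0.000146), so its mean over the brain did not differ by the test (−0.18, SE 0.153, adjusted p = 0.2991). That last difference was 0.05 without rat 5 (adjusted p = 0.7769) and passed without rat 7 (−0.44, adjusted p = 0.01507). Among T cell markers, Cd3e also had a higher mean in HC (7.14) than in PFC (5.05). Unlike Il16, Cd3e was highest in blood (10.11). Cd3g, another chain of the same complex, was at 2.85 in HC and 2.96 in PFC, and Cd3d at 3.99 and 4.20. Of the 8 T cell markers 1 was present in HC and 0 in PFC.

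Il1rapl1 was lower in HC than in PFC on every array (log2 difference −0.72, SE 0.0990, adjusted p = 0.001323), and Il1rap was higher in HC on every array (0.44, SE 0.0808, adjusted p = 0.007512). Il6r was higher in HC by 0.52 (SE 0.125, adjusted p = 0.02933), again without overlap. The calls of Il16 and Il1rapl1 held when any array or rat was left out. That of Il1rap was lost without any 1 rat (adjusted p = 0.1351 without rat 2, 0.06644 without rat 5 and 0.06897 without rat 7), and that of Il6r without any 1 rat or any 1 HC or PFC array (adjusted p = 0.0567 to 0.214).

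The HC and PFC arrays did not overlap for 12 of the 27, as for 42% of all probe sets. Besides the 4 called these were Il17ra, Il34, Il33, Il3ra, Il13ra1, Il12a, Il4r and Il6st, of which the 3 with the widest differences are given here, chosen after their values had been seen. Il17ra had a log2 difference of −0.54 (SE 0.148, adjusted p = 0.05281), and with the rat as a block it passed (adjusted p = 0.0219). Il34 had one of −0.47 (SE 0.158, adjusted p = 0.115) and Il33 one of 0.44 (SE 0.141, adjusted p = 0.09448). The mean levels of some marker lists lay apart between the regions. The mean of 5 erythroid markers was 5.27 to 5.58 in HC and 5.84 to 6.13 in PFC, that of 5 oligodendrocyte markers 10 to 10.33 and 9.04 to 9.65, that of 6 astrocyte markers 10.29 to 10.36 and 9.74 to 9.84, and that of 5 choroid plexus markers 6.27 to 6.93 and 4.89 to 4.98. Of the markers tested, 2 of 5 erythroid genes were lower in HC, and 4 of 5 oligodendrocyte, 1 of 6 astrocyte and 1 of 3 choroid plexus genes were higher. The choroid plexus mean rests largely on Ttr, at 10.42 in HC and 4.35 in PFC. Their part in the differences of interleukin genes was not tested. The plot of the differences between HC and PFC gives the intervals.

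**Figure D2:**
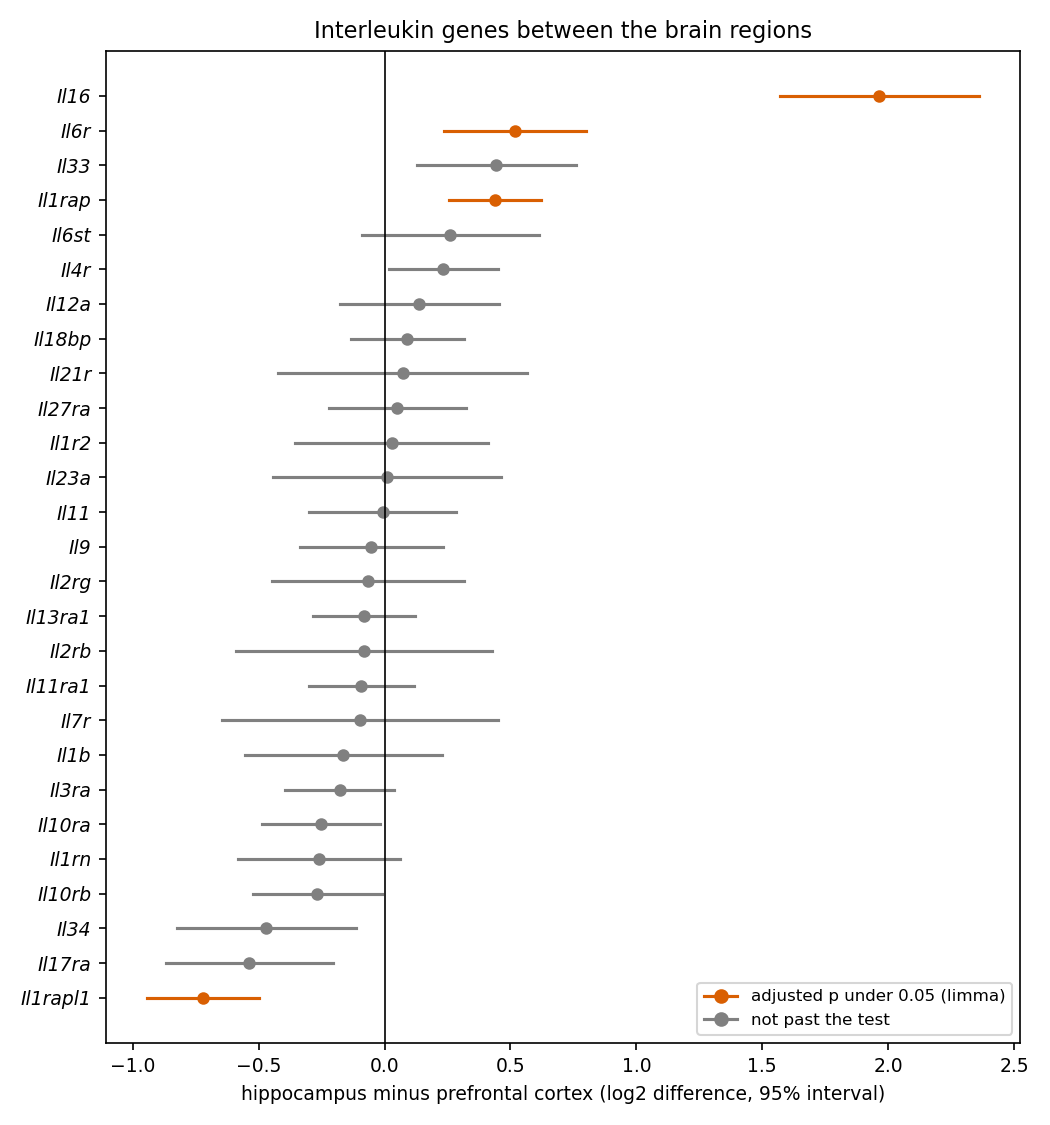
Log2 difference between HC and PFC (horizontal axis, HC minus PFC) for the 27 genes tested, with points for the fitted difference and bars for 95% intervals from limma; coloured points passed an adjusted p under 0.05. Il16 at 1.96 stands far to the right of the others, which lie between −0.72 and 0.52.

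The spread over the 3 arrays of a tissue was wider in blood than in brain. The median SD over 3 rats of the 27 genes was 0.242 in blood, 0.0965 in HC and 0.123 in PFC, beside 0.221, 0.0679 and 0.0775 over all probe sets tested. The model shared each gene's spread over all tissues. The SEs and adjusted p-values against blood can therefore be too small, and those between HC and PFC too large. Some brain values were equal on arrays of different rats, such as Il1rap (8.7139) and Il10rb (6.5522) in PFC of rats 5 and 7. Equal values lower an SD, and their part in the narrower spread of brain was not tested. Il2rb had the widest spread in blood (SD 0.557). Rat 5 had the lowest blood level in 12 of the 19 genes that were lower in brain, rat 2 in 3 and rat 7 in 4. The same count over all probe sets was not made, so whether this is particular to these genes is not known. T cell markers averaged 9.41, 8.86 and 9.55 in blood of rats 2, 5 and 7, NK and cytotoxic cell markers 8.61, 7.83 and 8.72, monocyte markers 10.09, 10.01 and 10.22, and neutrophil markers 8.60, 8.69 and 8.21. B cell markers averaged 8.74, 8.33 and 8.49, platelet markers 10.15, 9.85 and 10.3, and erythroid markers 12.52, 12.62 and 12.42. Il2rg, Il7r, Il21r, Il2rb, Il1b and Il1rn were lowest in rat 5, as were the T, NK, B cell, monocyte and platelet lists. Of the 19 genes, Il1r2, Il17ra, Il9 and Il11 were highest there, as were the neutrophil and erythroid lists. The neutrophil list was mixed: Csf3r was lowest in rat 5 (9.68 beside 9.93 in rat 2 and 9.875 in rat 7), and S100a8 was highest in rat 2 (7.49). With 3 rats no correlation was computed, and the part of these cell types was not tested. The genes in the plot of blood levels by rat were chosen after their values had been seen.

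**Figure D3:**
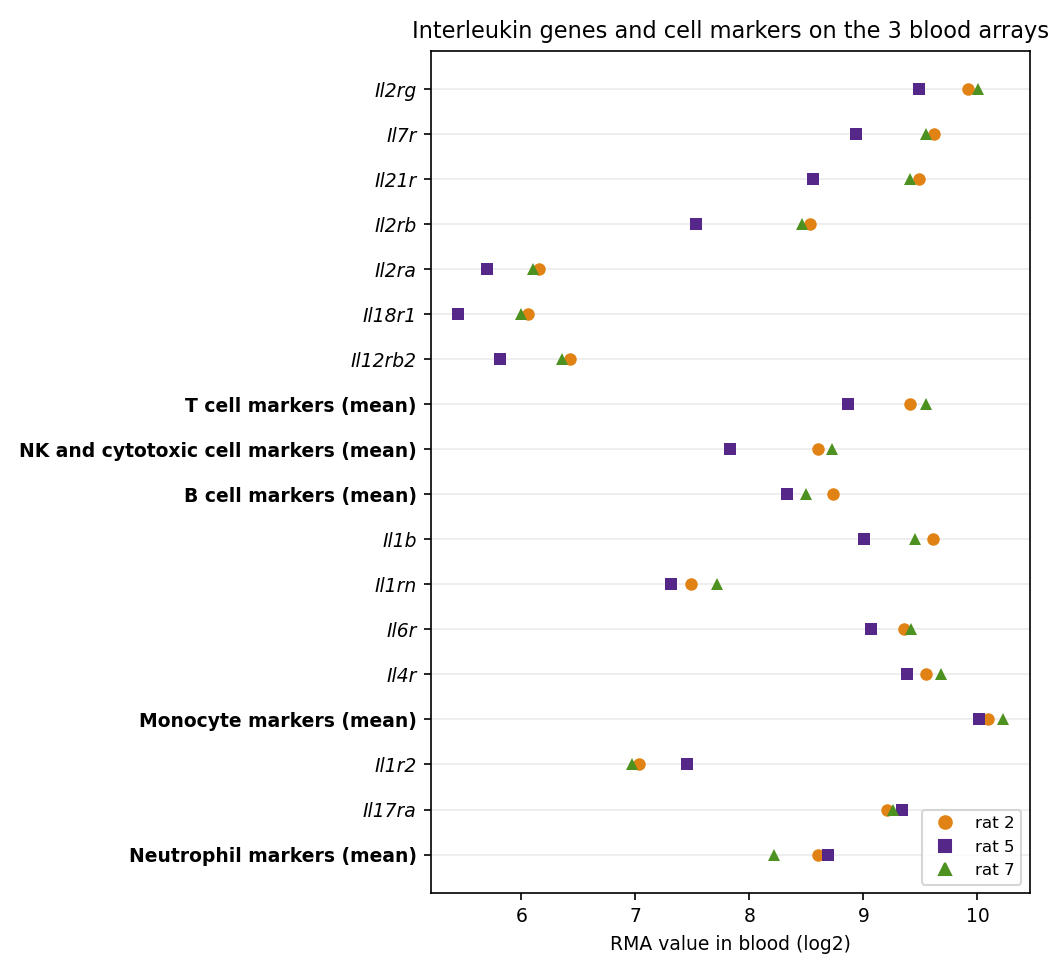
Log2 level in blood (horizontal axis) of selected interleukin genes and, in bold, the mean of cell marker lists, with 1 point per rat. Rat 5 is lowest for Il2rg, Il7r, Il21r and Il2rb and for the T cell (8.86) and NK and cytotoxic cell (7.83) lists, and highest for Il1r2 (7.45), Il17ra (9.34) and the neutrophil list (8.69).

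The signalling genes behind the receptors were measured as lists of genes that are not interleukins. Over all probe sets tested, 48.8% were higher and 37.4% lower in brain than in blood. Of 19 JAK-STAT genes, 2 were higher, 14 were lower and 3 did not pass. The 2 higher were Socs5 (1.34, SE 0.28, adjusted p = 0.001236) and the phosphatase Ptpn11 (0.94, SE 0.0904, adjusted p = 3.973e-06). The kinase Jak3, which binds the common gamma chain, was lower by a difference of −1.97 (SE 0.123), Stat4, used by the IL-12 receptor, by −3.22 (SE 0.225; −2.91 with HC, which was below background, raised to it), Stat6, used by the IL-4 receptor, by −3.01 (SE 0.104) and the phosphatase Ptpn6 by −3.56 (SE 0.0747). Jak1, which most of the receptors use, differed by −0.26 (SE 0.105, adjusted p = 0.0367) and Stat3 by −0.24 (SE 0.0899, adjusted p = 0.0308), and Jak2 did not pass (−0.23, adjusted p = 0.1234). Of 11 tested genes of IL-1 and IL-17 signalling, 2 were higher, 8 lower and 1 did not pass. Casp1, the protease that matures IL-1β, differed by −3.51 (SE 0.148; −3.45 with arrays raised to background), its adaptor Pycard by −2.35 (SE 0.0950) and Myd88 by −2.22 (SE 0.0929), and Tollip was higher in brain by 1.40 (SE 0.126). Of 14 partner cytokines and receptors tested, 4 were higher, 9 lower and 1 did not pass. The higher ones hold Lifr, which was below background in blood and at least 2.15 higher in brain (fitted 2.62, SE 0.155), and Cntfr (1.80, SE 0.102), whose receptors use gp130, and Csf3r (−4.05, SE 0.0861) and Csf2rb (−2.40, SE 0.100), chains of myeloid receptors, were among the lower. Between HC and PFC, where 4.51% of all probe sets were higher in HC and 4.66% lower, 3 JAK-STAT genes were lower in HC, Stat5b (−0.68, SE 0.144, adjusted p = 0.01518), Socs2 (−0.90, SE 0.218, adjusted p = 0.03087) and Stat4 (−1.10, SE 0.260, adjusted p = 0.02704), and 16 did not pass. Stat4 was below background in HC, and with HC raised to it the difference was −0.47. None of the 11 genes of IL-1 and IL-17 signalling passed there. Of the 14 partners, Csf1 (0.72, SE 0.116, adjusted p = 0.003486), the other ligand of Csf1r, and Ptprz1 (0.62, SE 0.0994, adjusted p = 0.003502) were higher in HC. The PFC values of Ptprz1 were equal on all arrays (9.298).

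The 38 genes present in no tissue were mostly ligands. They include Il2, Il4, Il5, Il6, Il10, Il13, Il17a and Il21, the cytokines that activated T cells and myeloid cells secrete. Their means ran from 3.08 to 6.197 in blood, from 2.64 to 5.68 in HC and from 2.79 to 5.90 in PFC. The means of 13 were above background in blood, of 8 in HC and of 8 in PFC, so the cut-off of 6.2 left out some genes with a signal. In blood these were Il12rb1, Il12rb2, Il2ra, Il17a, Il17re, Il18r1, Il9r, Il18, Il2, Il1rl1, Il24, Il17b and Il1r1. In HC and in PFC they were Il12rb1, Il17a, Il17re, Il9r, Il18, Il2, Il17b and Il1r1. Those at or below background in every tissue were Il10, Il12b, Il13, Il13ra2, Il15, Il17f, Il17rb, Il1a, Il1f10, Il1rl2, Il20, Il20ra, Il21, Il22, Il22ra2, Il3, Il36a, Il36b, Il36g, Il36rn, Il4, Il5, Il5ra, Il6 and Il7. Il12rb2, the second chain of the IL-12 receptor, missed it by the least in blood (6.42, 5.81 and 6.36), and Il9 and Il11 passed it by the least. Il18r1 was at 6.06, 5.45 and 6.001 in blood and between 3.14 and 3.64 in brain. Brain was below blood for 37 of the 38, the exception being Il1r1, the signalling receptor of IL-1, at 5.52, 5.89 and 5.36 in blood, 5.63, 5.68 and 5.73 in HC and 5.85, 5.98 and 5.86 in PFC. The median difference of the 38 was −0.67, beside −0.51 over all 12330 probe sets that were not tested, of which 87.17% were lower in brain, so the direction is not particular to interleukin genes.

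**Figure D4:**
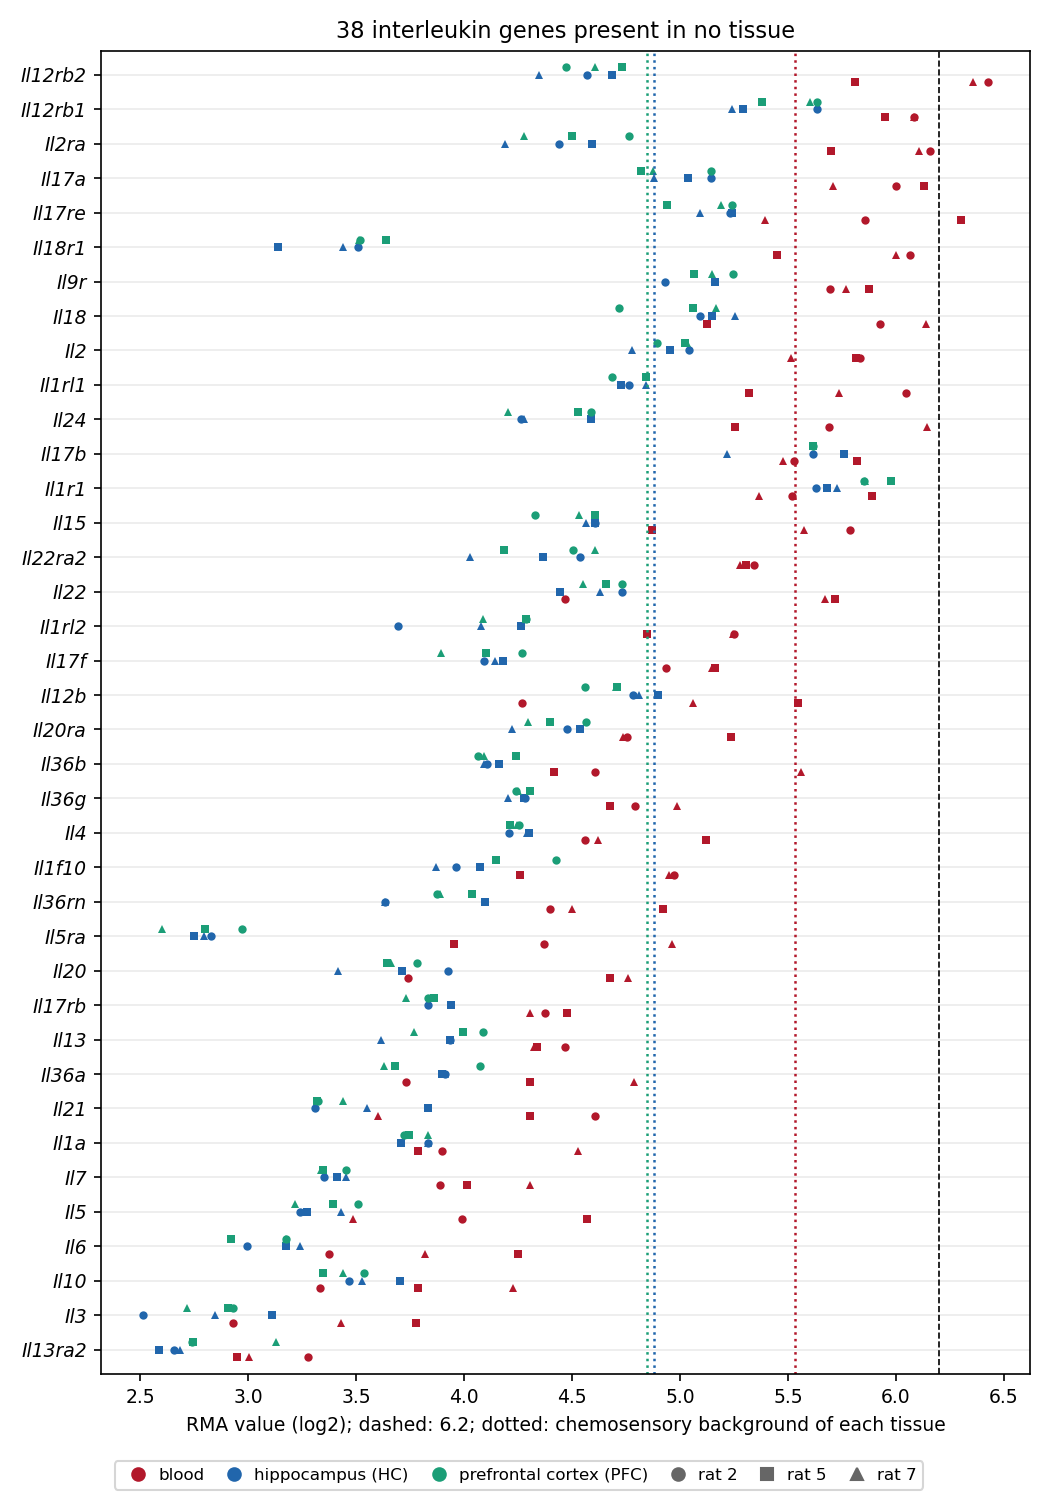
Log2 level (RMA value, horizontal axis) of the 38 interleukin genes present in no tissue, with 1 point per array, colours for the 3 tissues and symbols for the 3 rats; vertical lines mark the cut-off of 6.2 and the background of each tissue. Most points lie left of the background lines, and Il12rb2 and Il1r1 are among the genes that lie right of them in blood or brain.

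Some genes that are next to each other in the order of the RefSeq annotation were present in different tissues. Il4r and Il21r are neighbours on chromosome 1, and Il4r was present in brain where Il21r was not. Il1a lies next to Il1b on chromosome 3 and was present in no tissue (3.90, 3.79 and 4.53 in blood), whereas Il1b was present in blood. Il1rn closes a row of IL-1 family genes on chromosome 3 (Il36g, Il36a, Il36b, Il36rn and Il1f10), of which no other was present. The receptor genes Il1r1, Il1rl2, Il1rl1 and Il18r1 follow each other on chromosome 9, and none was present in any tissue.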

How the data were processed

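RNA of blood, HC and PFC of 3 rats had been hybridized to 9 arrays, 3 per tissue. Intensities were quantile normalized and summarized per probe set by RMA, and the authors deposited values read as log2 (1.53 to 14.01), although the base is not named. Array means were 6.154 to 6.202. The spread within an array was narrower in blood (SD 1.85 to 1.90) than in brain (2.18 to 2.21). Of 29215 probe sets 29214 had values, and 15310 had exactly 1 symbol, 323 several and 13581 none. A probe set with 2 symbols was left out. The number of arrays limits the precision. Levels of different probe sets were not compared with each other.

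The 65 genes and all gene lists were chosen with earlier results of these data known. A linear model with 1 term per tissue and no block was fitted in limma 3.58.1 (R 4.3.3), with Benjamini-Hochberg adjustment over the 16884 probe sets with a mean above 6.2 in any tissue, and a probe set passed below 0.05. Every adjusted p-value printed is from limma. An exact permutation test of 3 arrays against 3 has 0.1 as its smallest p, so none is given. Named were up to 12 genes per direction with the widest differences from blood and the same direction in each rat, and every gene called between HC and PFC. The other 7 genes lower in brain, and the signalling and marker genes named, were singled out after their values had been seen. All 65 symbols matched RefSeq, which gave the promoter sequences. The tissues of a rat come from the same animal, so the rat numbers pair the arrays. Deviations from the tissue means correlated at 0.137 to 0.287 between HC and PFC of a rat. Between HC and PFC of different rats the range was −0.261 to 0.028. For blood and brain it was −0.08 to 0.05 within a rat and −0.106 to 0.118 between rats, so these values show no pairing there. The procedure was tested on simulated data.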

Additional observations from a re-analysis of the deposited data

How the results depend on the processing

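Of 644 alternative values of single genes 1 turned direction, that of Il16 between brain and blood, which had not passed and was 0.05 without rat 5 (adjusted p = 0.7769). Of all, 615 kept their side of the threshold, 16 passed it newly and 13 lost it. Without the filter on dim probe sets, 58 interleukin genes were called between brain and blood, 57 between HC and blood and 57 between PFC and blood, since all 65 were then tested. Between HC and PFC, 9 were called with the arrays of these regions alone (Il17ra, Il33, Il34, Il4r and Il6st in addition), 1 when a log2 difference above 1 was also required, and 2 to 6 when arrays or rats were left out, with 2 (Il16 and Il1rapl1) without each of rats 2, 5 and 7. When arrays or rats were left out, the genes tested stayed fixed, and 26 to 27 genes were called between brain and blood. With the replicate block for the rat, 26, 27, 27 and 5 genes were called in the 4 comparisons, and Il17ra between HC and PFC was the call that it changed. Il17ra also passed under 8 other settings. Without the filter, Il6r no longer passed between HC and PFC (adjusted p = 0.05926). Counts of genes present depended on the cut-off. At 7.2 they were 16, 5 and 4 in blood, HC and PFC, at 5.2 they were 42, 23 and 24, and with the background of each tissue as cut-off 37, 32 and 32. Signal over background limits the genes whose dimmer tissue lies below background, for which only the least difference is known.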
